A study of Homo sapiens with 6 samples.

Results

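The genes described here are 10 genes of transforming growth factor beta (TGF-beta) and activin signalling: TGFB1, TGFB2, TGFB3, INHBA, LTBP1, TGFBR1, TGFBR2, SMAD3, SMAD7 and TGFBI. They were picked by symbol, each symbol matched 1 Ensembl gene, and they are 10 of the 57659 genes in the count files. The RNA came from IMR90, primary fibroblasts of human fetal lung that are much used in work on senescence, grown in medium with fetal bovine serum. The luciferase control group (3 libraries) expressed a short hairpin RNA against luciferase, an insect enzyme with no human counterpart, and the macroH2A1 knockdown group (3 libraries) expressed one against macroH2A1, a histone H2A variant with a large globular domain. The series calls the libraries of a group biological replicates, but the labels do not say how the hairpins were delivered or whether replicates were separate transductions, so p-values measure the spread between these libraries only. IMR90 cells come from a single donor, and the labels name 1 hairpin target per group and no second hairpin.

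TGF-beta and activin are dimeric secreted proteins of a shared superfamily. TGF-beta leaves the cell in a latent complex with its own propeptide and a latent TGF-beta binding protein, which tethers it to the matrix until it is released. The freed ligand joins a type II and a type I receptor kinase, which phosphorylate SMAD2 and SMAD3. These bind SMAD4 and enter the nucleus, where they act on target genes, among them genes of inhibitors such as SMAD7 that feed back on the receptors. In lung fibroblasts the pathway is known for driving matrix production and the myofibroblast state.

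Reads assigned to genes numbered 3744716 to 6421605 per control library and 3741087 to 5322851 per knockdown library. The targeted gene, MACROH2A1, had 46.3% of its control level in the knockdown (a log2 fold change of -1.11 with SE 0.08; edgeR adjusted p = 0.000917) and was lower in each of the 3 knockdown libraries than in any control library. Reads outside annotated features made up 8.34% to 9.43% of the control and 10.6% to 11.3% of the knockdown libraries, and reads without a unique alignment 67.6% to 68.8% and 64.4% to 66.6%; the part of these differences in the results below was not tested. Markers fit the label of fibroblasts: the 10 fibroblast markers, COL3A1, DCN and VIM among them, summed to 7437 to 8494 CPM (depth-scaled counts, over TMM-scaled library sizes) in the control and 11936 to 12678 in the knockdown, and 5 of the 9 tested were higher. S100A4, also on this list, had 8 control and 17 knockdown counts and was too low to be tested. Of the 10 epithelial markers, SFTPB and SCGB1A1 had no counts and EPCAM and CDH1 had 7 and 2 over all libraries, while the list's sum, carried by KRT18 and KRT8, went from 27.7 to 30.2 CPM in the control to 7.71 to 12.2 in the knockdown. The 7 endothelial markers summed to 67.1 to 72.5 CPM in the control and 143 to 149 in the knockdown, through TEK and KDR, with PECAM1 at 0 and CDH5 at 1 count. Counts were fewer in the knockdown for FLT1, with 95 control and 64 knockdown counts, and VWF, with 17 and 8. Scaled for depth, both overlapped between the groups. FLT1 did not pass (edgeR adjusted p = 0.327) and VWF was too low to be tested. The immune markers summed to 13.7 to 18.2 CPM over all libraries, carried by CD4 (130 control and 139 knockdown counts) and CD68 (90 and 60), with PTPRC at 2 counts and CD3E at 0, and 0 of 5 smooth muscle markers passed the edgeR test (0 at an unadjusted p under 0.05, 0 with DESeq2 and 0 with limma-voom).

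All 10 genes were abundant enough to be tested. TGFBI and LTBP1 were higher in the knockdown and INHBA was lower (quasi-likelihood test of edgeR, with p adjusted by Benjamini-Hochberg over all 13445 genes tested and called under 0.05), so 3 of 10 were called, where 8.21% of all genes tested were called (3.90% higher and 4.31% lower). The CPM values of the 2 groups did not overlap for 7 of the 10, where this held for 30.4% of all genes tested. The median log2 fold change of the 10 was 0.22, against 0.01 over all genes tested. The 10 were chosen with earlier results of these data known, so these shares are a description and measure no excess. The authors' deposited table, in which 12.0% of 11638 protein-coding genes had an adjusted p under 0.05, called the same 3 genes and TGFBR1 and TGFBR2 as well.

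**Figure D1:**
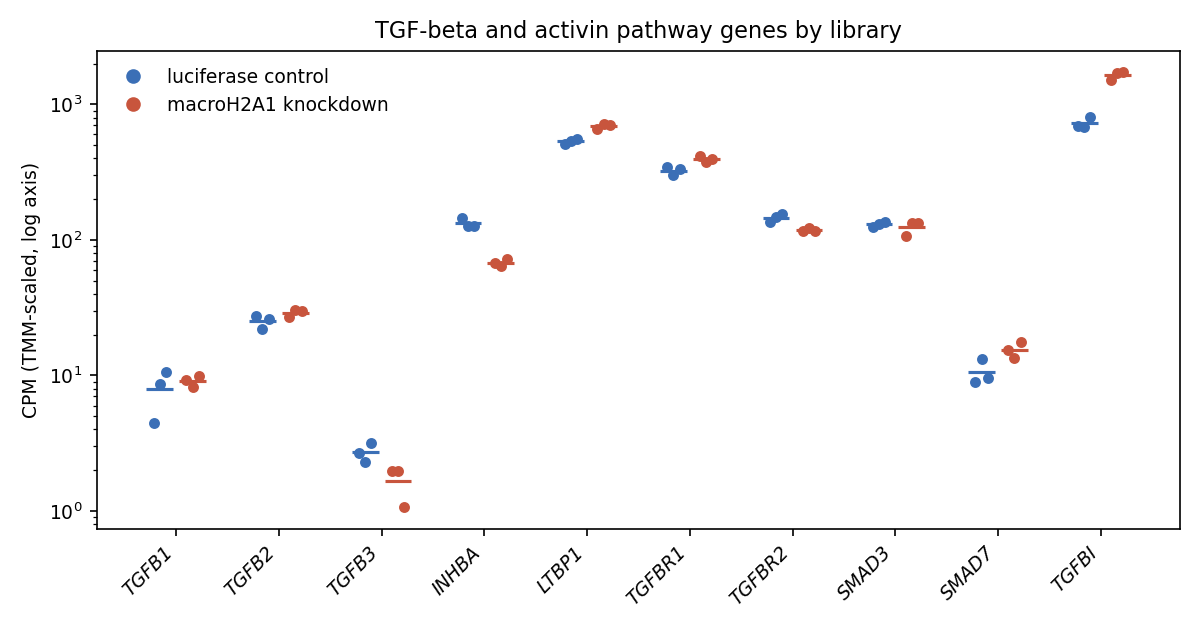
TMM-scaled CPM (log axis) of the 10 genes in each library, with 3 control points (blue) and 3 knockdown points (red) per gene and a line at each group mean. TGFBI lies at 677 to 802 CPM in the control and at 1503 to 1721 in the knockdown, INHBA at 127 to 145 and 64.1 to 72.6, and the groups of TGFB1, TGFB2 and SMAD3 overlap.

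Of the 3 genes for the TGF-beta ligands themselves, 0 passed the edgeR test (0 at an unadjusted p under 0.05, 0 with DESeq2 and 0 with limma-voom). TGFB1 (ENSG00000105329, chromosome 19), the most widely expressed isoform, had control counts of 28, 38 and 40 and knockdown counts of 47, 38 and 37. Scaled for depth, control replicate 1 stood low at 4.43 CPM, beside 8.69 and 10.6 CPM in the other controls and 9.30, 8.26 and 9.91 CPM in the knockdown, so the groups overlapped. The log2 fold change was 0.25 (SE 0.32, edgeR adjusted p = 0.693), and without control replicate 1 it was -0.07. TGFB2 (ENSG00000092969, chromosome 1), the isoform with the lowest affinity for the type II receptor on its own, had 27.4, 22.2 and 26.2 CPM in the control and 27.1, 30.2 and 29.7 CPM in the knockdown. These groups overlapped too, and the log2 fold change of 0.20 (SE 0.10) did not pass (edgeR adjusted p = 0.303). TGFB3 (ENSG00000119699, chromosome 14), an isoform with roles in palate and lung development, had only 17, 10 and 12 control counts and 10, 9 and 4 knockdown counts. Its scaled groups did not overlap (2.29 to 3.17 CPM against 1.07 to 1.98 CPM), but the log2 fold change of -0.66 (SE 0.31) did not pass (edgeR adjusted p = 0.271).

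Per kilobase of exon, TGFB2 was the most abundant of the 3 isoform genes in each library. Its level was 4.90 ± 0.527 CPM per kilobase in the control, against 2.44 ± 0.972 for TGFB1 and 0.553 ± 0.0902 for TGFB3 (SD, n = 3). TGFB2 made up 73.5%, 57.8% and 56.5% of the summed level of the 3 genes under the luciferase hairpin and 61.6%, 66.5% and 63.8% under the macroH2A1 hairpin (exact two-sided permutation test of the means, p = 0.9). The sum itself was 7.89 ± 0.959 CPM per kilobase in the control and 8.80 ± 0.259 in the knockdown (SD, n = 3 per group). In the annotation used for lengths, 26.6% of the exonic bases of TGFB2 are shared with TGFB2-OT1, a transcript on the same strand, so its count is uncertain.

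INHBA (ENSG00000122641, chromosome 7) was the called gene that fell. It encodes the beta A subunit, whose homodimer is activin A, a secreted ligand that signals through activin receptors and the same SMADs as TGF-beta. The control libraries had 919, 557 and 481 counts, or 145, 127 and 127 CPM, and the knockdown libraries 340, 295 and 271 counts, or 67.3, 64.1 and 72.6 CPM. The highest knockdown library lay far below the lowest control library. The fall, to 51.0% of control (log2 fold change -0.97 with SE 0.09, edgeR adjusted p = 0.00192), was called in all 16 alternative settings. Per kilobase, INHBA went from 16.1 ± 1.26 to 8.19 ± 0.514 CPM (SD, n = 3 per group), which placed it above SMAD3 in the control libraries and below it in the knockdown libraries.

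In the lists below where no gene fell with edgeR, none was lower at an unadjusted p under 0.05 or fell with DESeq2 or limma-voom either. ITGB1, described below, was called lower in the authors' deposited table. Of 10 genes of other ligands and of secreted proteins that bind ligands, 4 were tested, 1 rose and none fell (median log2 fold change 0.18). Of all genes tested, 3.90% rose and 4.31% fell. FST, follistatin, which binds activin tightly and keeps it from its receptors, rose from 138 ± 5.70 to 191 ± 2.13 CPM (SD, n = 3 per group, log2 fold change 0.47, SE 0.07, edgeR adjusted p = 0.00895). INHBA and FST therefore changed in opposite directions, and the ratio of their counts within a library, which needs no scaling between libraries, was 1.11, 0.906 and 0.897 in the control and 0.354, 0.331 and 0.383 in the knockdown. These ratios did not overlap, and their group means differed 2.72-fold (exact two-sided permutation test p = 0.1, the smallest that 3 against 3 libraries allow, and 0.15 when adjusted over the 3 ratios computed). Neither INHBA nor FST overlapped between the groups, and they moved in opposite directions. The lack of overlap and the p-value of the ratio follow from this and are no separate evidence. FSTL1 and FSTL3, secreted relatives of follistatin, had log2 fold changes of 0.11 and -0.09, and GDF11, a ligand close to myostatin, one of 0.25 (edgeR adjusted p from 0.469 to 0.788). The genes of the other activin and inhibin subunits were barely detected: INHBB had 20 control and 12 knockdown counts, INHBE 23 and 26, and INHA 1 and 2. INHBC and NODAL had no count in any library, which allows up to 0.107 CPM over the 6 libraries together. The intervals and limits of counts given here cover counting error only.

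LTBP1 (ENSG00000049323, chromosome 2), the latent TGF-beta binding protein that links the latent complex to fibrillin and fibronectin, was modestly higher in the knockdown. It had 514, 540.5 and 552 CPM in the control libraries and 661, 714 and 699 CPM in the knockdown libraries, with no overlap. The log2 fold change was 0.37 (SE 0.08, edgeR adjusted p = 0.0325). The call was lost without any 1 of the 6 libraries (adjusted p from 0.0574 to 0.109) and with library totals as the only scaling (adjusted p = 0.0656). Its log2 fold change stayed between 0.35 and 0.41 in the 16 alternative settings.

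Several other genes of the latent complex and of its activation rose. Of 14 tested (of 16), 5 rose and none fell with edgeR, where 3.90% of all genes tested rose and 4.31% fell. The median log2 fold change was 0.24. LTBP4, a binding protein that in its long form carries latent TGF-beta and also organises elastic fibres, had 10.8, 13.7 and 14.5 CPM in the control and 37.6, 31.1 and 30.3 CPM in the knockdown (log2 fold change 1.35, SE 0.15, edgeR adjusted p = 0.00371). FBN2, a fibrillin of the microfibrils that hold latent complexes, rose from 515 ± 11.4 to 1023 ± 35.8 CPM, and FBN1, the main fibrillin of adult tissue, from 676 ± 41.3 to 880 ± 22.1 CPM (SD, n = 3 per group, edgeR adjusted p = 0.00119 and 0.0365). EMILIN1, a matrix glycoprotein that limits the processing of the TGF-beta precursor, was 1.75-fold higher, and ITGB3, an integrin subunit that pairs with ITGAV to bind latent TGF-beta, 1.62-fold higher (edgeR adjusted p = 0.00478 and 0.0119). The ITGB3 count is uncertain, since 51.6% of its exonic bases are shared with AC068234.1 on the same strand. FBN1 lost its call without any 1 library (adjusted p from 0.0548 to 0.123) and with library totals only (0.0674), and ITGB3 lost it without control replicate 2 (0.0545). Of the most abundant genes of this list that did not pass, THBS1, thrombospondin 1, which can activate latent TGF-beta, had 4859 ± 179 CPM in the control and 5522 ± 222 in the knockdown, ITGAV a log2 fold change of 0.19 and ITGB1 one of -0.20 (SD, n = 3 per group, edgeR adjusted p from 0.209 to 0.313). In the authors' deposited table all of these passed, THBS1 and ITGAV as higher (DESeq adjusted p = 0.00266 and 0.0383). ITGB1 passed there as lower (log2 ratio -0.19, DESeq adjusted p = 0.00178). The fibrillins and LTBP4 are matrix genes, and the sum of the fibroblast markers, matrix genes among them, was higher in the same libraries. Of the 9 markers tested, 5 passed as higher. VIM and THY1 had log2 fold changes of 0.0006 and 0.08 (edgeR adjusted p = 0.998 and 0.661). The part of the rise in matrix genes in these counts was not tested.

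Neither gene of the receptor pair passed the test, and their log2 fold changes had opposite signs. TGFBR1 (ENSG00000106799, chromosome 9), the type I receptor kinase that phosphorylates the SMADs, had 342.5, 300.0 and 331 CPM in the control and 415, 374.5 and 398 CPM in the knockdown. All knockdown libraries were above all control libraries, at a log2 fold change of 0.29 with SE 0.08 (edgeR adjusted p = 0.0900). TGFBR2 (ENSG00000163513, chromosome 3), the type II receptor that binds the ligand first, had 136, 147 and 155 CPM in the control and 116, 122 and 116 in the knockdown. All its knockdown libraries were below all control libraries, at a log2 fold change of -0.31 with SE 0.07 (edgeR adjusted p = 0.0532). In the authors' deposited table both passed, with log2 ratios of 0.30 and -0.30 and adjusted p of 0.000993 and 0.0101. Both also passed here with limma-voom (adjusted p = 0.0469 and 0.0399), and TGFBR2 alone with DESeq2 (adjusted p = 0.0361).

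The balance of the receptor transcripts can be read within each library. Each TGFBR2 count went with 2.52, 2.04 and 2.14 TGFBR1 counts in the control and with 3.57, 3.08 and 3.44 in the knockdown. The group means, 2.23 ± 0.256 and 3.36 ± 0.254 (SD, n = 3 per group), differed 1.51-fold with no overlap (exact two-sided permutation test p = 0.1, the smallest possible, 0.15 adjusted over the 3 ratios). All knockdown libraries lay above all controls for TGFBR1 and below them for TGFBR2. The lack of overlap and the p-value of their ratio follow from this and are no separate evidence. The TGFB2 share of the isoform genes, the third ratio, overlapped between the groups.

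**Figure D2:**
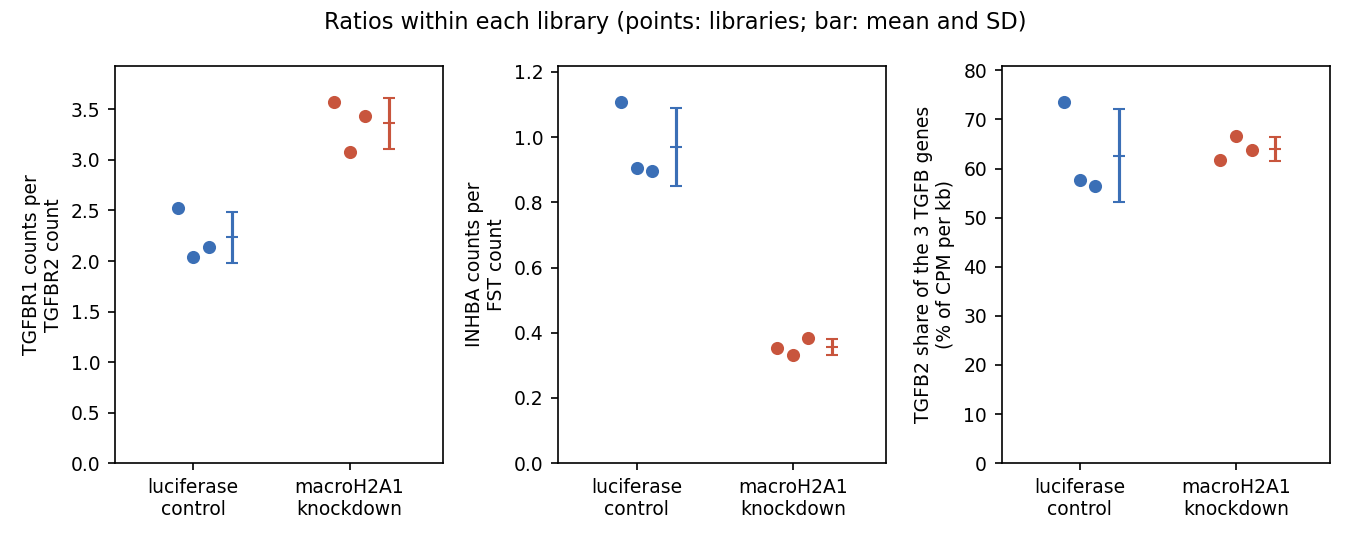
Ratios within each library: TGFBR1 counts per TGFBR2 count, INHBA counts per FST count, and TGFB2 as a percentage of the summed CPM per kilobase of TGFB1, TGFB2 and TGFB3. Points are libraries (3 control, 3 knockdown) and bars the mean with SD; the receptor ratio lies at 2.04 to 2.52 in the control and 3.08 to 3.57 in the knockdown, the INHBA to FST ratio at 0.897 to 1.11 and 0.331 to 0.383, and the TGFB2 shares overlap.

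Among 8 tested genes of other receptors and co-receptors (of 9), 2 rose and none fell, where 3.90% of all genes tested rose and 4.31% fell. The median log2 fold change was 0.33. ACVRL1, the type I receptor ALK1, which signals through the SMADs of the bone morphogenetic protein branch and is best known from endothelium, had 8.07, 9.15 and 10.3 CPM in the control and 23.3, 19.6 and 18.8 CPM in the knockdown (log2 fold change 1.17, SE 0.15, edgeR adjusted p = 0.00687). TEK and KDR, of the endothelial list, were higher in the same libraries, while the endothelial markers PECAM1 and CDH5 were at 0 and 1 count. FLT1 and VWF, of the same list, had fewer counts in the knockdown. FLT1 had 95 control and 64 knockdown counts (log2 fold change -0.42, edgeR adjusted p = 0.327), and VWF 17 and 8. TGFBR3, betaglycan, a co-receptor that presents TGFB2 to the type II receptor, was 1.40-fold higher (log2 fold change 0.49, edgeR adjusted p = 0.0384), a call that was lost without any 1 library (adjusted p from 0.0582 to 0.114) and with DESeq2 (0.0529). ACVR2A, an activin type II receptor, BAMBI, a decoy receptor, and TGFBRAP1 had log2 fold changes of 0.36, 0.21 and -0.02 (edgeR adjusted p from 0.215 to 0.968).

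Neither SMAD among the 10 genes passed the test in edgeR, DESeq2 or limma-voom, though SMAD7 had an unadjusted edgeR p of 0.0256. SMAD3 (ENSG00000166949, chromosome 15), which carries the signal to target genes, had 125, 132 and 136 CPM in the control and 107, 133 and 133 CPM in the knockdown. The groups overlapped, at a log2 fold change of -0.08 with SE 0.10 (edgeR adjusted p = 0.713), and knockdown replicate 1 was the one low value: without it the log2 fold change was 0.03. SMAD7 (ENSG00000101665, chromosome 18), an inhibitory SMAD that blocks the type I receptor and is itself a rapid target of the pathway, had 57, 58 and 36 control counts and 78, 62 and 66 knockdown counts. Scaled, these were 9.02, 13.3 and 9.51 CPM against 15.4, 13.5 and 17.7 CPM, so the lowest knockdown library lay just above the highest control library. The log2 fold change of 0.55 (SE 0.19) did not pass (edgeR adjusted p = 0.139).

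Of 17 tested SMADs and regulators of SMADs (of 18), 1 rose and 1 fell, a share near the 8.21% called among all genes tested, with a median log2 fold change of 0.04. SMURF2, a ubiquitin ligase that SMAD7 brings to the receptors and that marks them for degradation, had 638, 621 and 578 CPM in the control libraries and 310.3, 309.7 and 330 CPM in the knockdown libraries. It fell to 51.7% of control (log2 fold change -0.95 with SE 0.08, edgeR adjusted p = 0.00144) and was called in all 16 alternative settings. TGIF1, a nuclear repressor that binds SMADs, rose from 37.7 ± 3.52 to 59.5 ± 6.61 CPM (SD, n = 3 per group, edgeR adjusted p = 0.0174), a call lost without control replicate 1 or 2 or knockdown replicate 1 or 3 (adjusted p from 0.0576 to 0.0711). SMAD2 and SMAD4, the other SMADs of the pathway, had log2 fold changes of 0.05 and 0.25, and SKIL, a repressor of SMAD complexes, one of 0.10 (edgeR adjusted p from 0.0756 to 0.703).

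TGFBI (ENSG00000120708, chromosome 5) was the most abundant of the 10 genes per kilobase and had the largest fold change among them. It encodes a secreted matrix protein that binds integrins and collagens and takes its name from its induction by TGF-beta. The control libraries had 4393, 2960 and 3035 counts, or 695, 677 and 802 CPM, and the knockdown libraries 7600, 7847 and 6426 counts, or 1503, 1706 and 1721 CPM. The lowest knockdown library was well above the highest control library. The log2 fold change was 1.18 (SE 0.11, edgeR adjusted p = 0.00192), with 2.27 times the control level, and it was called in all 16 alternative settings, at 1.13 to 1.26 on the log2 scale. Per kilobase it went from 92.8 ± 8.67 to 210.5 ± 15.6 CPM (SD, n = 3 per group).

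TGFBI and INHBA, the 2 of the 10 genes whose calls held in all settings, went in opposite directions. Their promoters are shown because they differ in base composition. Whether base composition goes with the direction of change was not tested. The 250 bases upstream of the single annotated start of each, from RefSeq on GRCh38.p14, are given 5′ to 3′ on the gene's own strand, with capitals marking matches on either strand to TATAAA (the TATA box), CCAAT (the CCAAT box), GGGCGG (the GC box bound by Sp1) or CAGACA (a SMAD-binding sequence); none of these matches overlap each other. The TGFBI window is chr5:136028738-136028987 on the plus strand and the INHBA window chr7:41703091-41703340 on the minus strand.
TGFBI: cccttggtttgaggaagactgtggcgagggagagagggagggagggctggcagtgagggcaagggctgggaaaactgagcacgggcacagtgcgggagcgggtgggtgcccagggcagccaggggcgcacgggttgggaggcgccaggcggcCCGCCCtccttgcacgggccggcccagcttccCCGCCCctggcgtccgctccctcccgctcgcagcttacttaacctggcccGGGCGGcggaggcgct
INHBA: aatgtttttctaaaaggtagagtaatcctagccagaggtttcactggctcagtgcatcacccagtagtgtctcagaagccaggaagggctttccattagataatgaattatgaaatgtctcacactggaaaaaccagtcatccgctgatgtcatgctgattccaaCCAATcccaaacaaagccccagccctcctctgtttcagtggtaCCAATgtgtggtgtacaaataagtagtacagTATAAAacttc

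The TGFBI window has 72.8% G and C and holds 3 GGGCGG matches, 2 of them on the opposite strand. The INHBA window has 42.8% G and C and holds 1 TATAAA, which starts 11 bases upstream of the annotated start, and 2 CCAAT. Neither holds CAGACA. Of 35116 windows of the same length in the RefSeq table, 10.7% hold TATAAA, 32.0% CCAAT, 42.6% GGGCGG and 13.6% CAGACA. Among the other 8 genes, TGFB1 has 6 GGGCGG in a window with 76.8% G and C, and TATAAA is found for TGFB2, at 1 of 2 starts of TGFB3 and at 1 of 3 of SMAD7. GGGCGG is also found at starts of TGFBR1, TGFBR2 and SMAD3, with 4 matches and 80.8% G and C at the first SMAD3 start. CCAAT is found at starts of TGFBR1, TGFBR2, SMAD3 and LTBP1. CAGACA is found for TGFB2, at 2 of 8 starts of TGFBR1, 1 of 5 of SMAD3 and 2 of 3 of LTBP1. A match is a description of the letters and shows no binding.

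Genes taken as targets of the pathway went both ways. Of 22 tested (of 25), 5 rose and 4 fell, where 3.90% of all genes tested rose and 4.31% fell. The median log2 fold change was 0.21, against 0.01 over all genes tested. HAS2, a hyaluronan synthase, fell from 41.0 ± 4.33 to 12.5 ± 2.83 CPM (SD, n = 3 per group, edgeR adjusted p = 0.00308).

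The other targets that fell were CDKN2B, CDKN1A and ADAM12. CDKN2B, which encodes the cell-cycle inhibitor p15, was 1.87-fold lower, and CDKN1A, which encodes p21 and is also a p53 target, 1.36-fold lower (edgeR adjusted p = 0.0164 and 0.0178). ADAM12, a membrane metalloprotease, was 1.84-fold lower (edgeR adjusted p = 0.0398). CDKN2B lost its call without 4 of the 6 libraries (control replicate 1 or 3, knockdown replicate 1 or 2, adjusted p from 0.0573 to 0.0687), CDKN1A without each library but control replicate 1 (0.0547 to 0.0730), and ADAM12 without any 1 library (0.0649 to 0.117) and with DESeq2 (0.0762).

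The targets that rose were ID1, ID3, CCN2, COL1A2 and COL4A1. ID1 and ID3, inhibitors of helix-loop-helix factors that respond mainly to the bone morphogenetic protein branch and to ACVRL1, rose from 28.7 ± 3.83 to 58.3 ± 2.43 and from 23.7 ± 2.20 to 52.9 ± 4.35 CPM (SD, n = 3 per group, edgeR adjusted p = 0.00362 and 0.00192). CCN2, connective tissue growth factor, was 1.47-fold higher, and COL1A2 and COL4A1, chains of collagens I and IV, 1.51-fold and 1.41-fold higher (edgeR adjusted p from 0.0142 to 0.0287). CCN2 and COL1A2 lost their calls without each library but control replicate 3 (adjusted p from 0.0658 to 0.101 and from 0.0569 to 0.0977), and COL4A1 without control replicate 1 or 2 or knockdown replicate 2 or 3 (0.0533 to 0.0657). COL1A2 is also one of the fibroblast markers whose sum was higher in the knockdown, and the part of that rise in these counts was not tested. COL1A1, FN1 and TPM1, the most abundant targets that did not pass, had log2 fold changes of 0.39, 0.10 and -0.03 (edgeR adjusted p from 0.0756 to 0.869). COL1A1 passed as higher in the authors' deposited table (log2 ratio 0.40, DESeq adjusted p = 8.83e-05), while FN1 and TPM1 did not pass there.

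**Figure D3:**
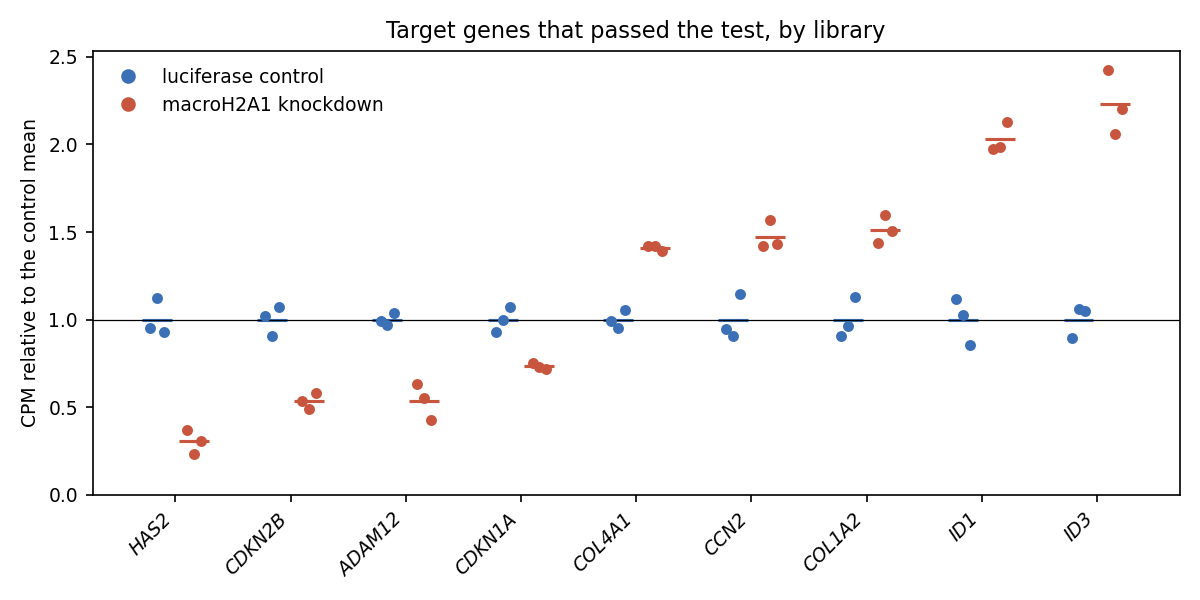
CPM of the 9 target genes that passed the test, divided by the mean of the 3 control libraries (line at 1), with control libraries in blue, knockdown libraries in red and a line at each group mean. HAS2, CDKN2B, ADAM12 and CDKN1A lie below the controls in each knockdown library, and COL4A1, CCN2, COL1A2, ID1 and ID3 above.

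Across the 5 lists, 65 of 78 genes were tested, 14 rose and 5 fell, where 3.90% of all genes tested rose and 4.31% fell, and the median log2 fold change was 0.21. The lists were chosen with earlier results of these data known, so these counts are a description and measure no excess. Of these 19 called genes, FST, LTBP4, FBN2, EMILIN1, ACVRL1, SMURF2, HAS2, ID1 and ID3 were called in all 16 alternative settings. When each library was left out in turn, 10 to 16 genes of the lists and 427 to 564 of all genes were called. Without control replicate 1, control replicate 2 or any knockdown replicate, 11 or fewer genes of the lists were called.

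**Figure D4:**
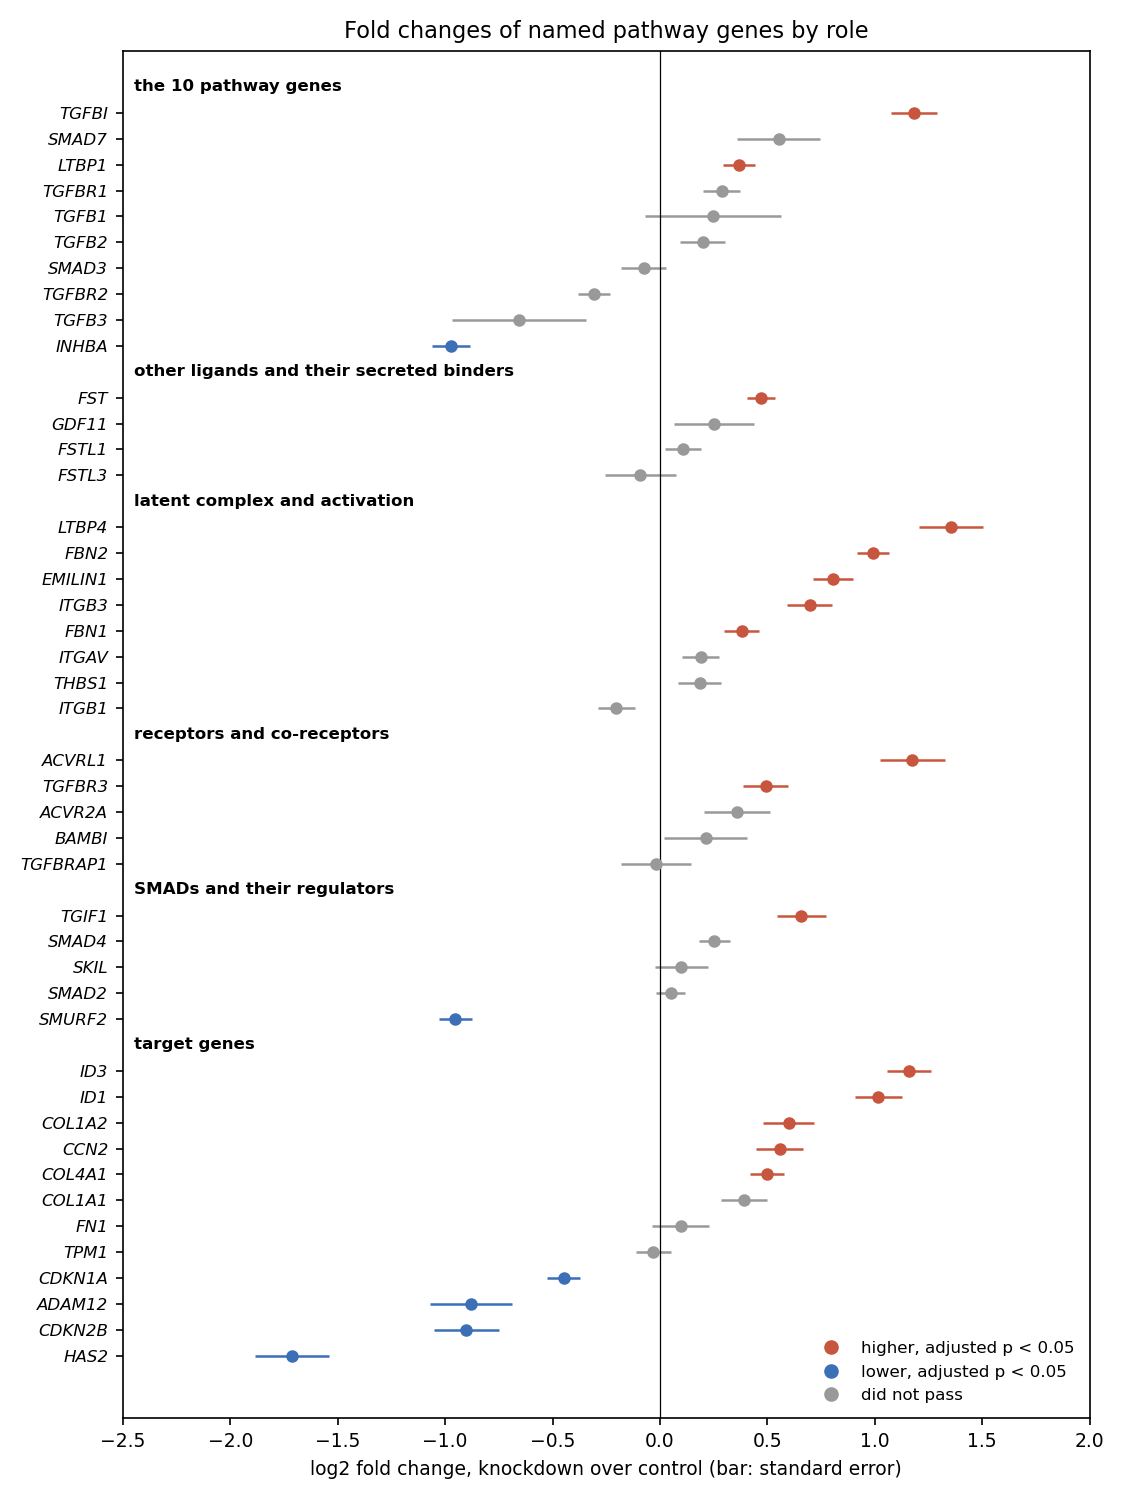
Log2 fold changes (knockdown over control) of the 10 genes and of the named genes of the 5 lists, grouped by role, with the standard error as a bar. Red and blue points passed the edgeR test as higher or lower, and grey points did not; INHBA, SMURF2 and HAS2 lie at -0.97, -0.95 and -1.71, and TGFBI, LTBP4 and ACVRL1 at 1.18, 1.35 and 1.17.

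Ordered by level per kilobase in the control libraries, the 10 genes ran from TGFBI (92.8 CPM per kilobase) through LTBP1 (73.1), TGFBR1 (47.4), TGFBR2 (31.0), INHBA (16.1), SMAD3 (14.4), TGFB2 (4.90), TGFB1 (2.44) and SMAD7 (2.11) to TGFB3 (0.553). Of neighbours in this order, TGFB1 and SMAD7 overlapped between libraries and the others did not. In the knockdown libraries the order differed at these 2 places: SMAD3 (13.7) stood above INHBA (8.19) with no overlap, and SMAD7 (3.09) above TGFB1 (2.83) with overlap. Levels per kilobase use the union of annotated exons, which is longer than any single transcript for genes with many isoforms.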

How the data were processed

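For each library the authors deposited unnormalized counts of reads by Ensembl gene, made with CASAVA 1.7, GSNAP and HTSeq on hg19, per the submitters' processing notes; for the HTSeq version, annotation and strandedness, the entry is: not given in the sources used here. Genes with an overlapping gene on either strand are therefore uncertain. The libraries were depleted of ribosomal RNA, kept strand through dUTP, and shared 1 lane, per the labels' protocols. Lines that name no gene were left out; reads assigned to genes were 11.9% to 13.7% of each file. The authors' deposited table (DESeq 1.10.1, per the submitters' processing notes) holds, per the file headers, mean signal (counts over size factors), the ratio of group means, its log2 value and p-values.

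Genes were filtered (filterByExpr, minimum count 10), scaled with TMM and tested with edgeR 4.0.16 glmQLFTest in R 4.3.3, group as the only term; an SE is the log2 fold change divided by the square root of F. Alternatives used limma 3.58.1, DESeq2 1.42.0, other scalings and filters, a replicate block and each library left out. Symbols and exon lengths came from GENCODE 29, on another build than hg19, so chromosome names only are given for genes. The steps were tested on simulated counts: of 13140 genes run for knockdown against control, 200 changed, and 93.8% of changes of 2, 27.4% of 1 and 4.62% of 0.5 on the log2 scale were recovered. The 10 genes and the lists were chosen with earlier results of these data known. Named genes are the 10, each list gene that passed, and the 3 most abundant of each list that did not; the number 3 was set after the values were seen, within a limit of 4. The list counts leave out 1 target gene that is not reported here.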

Additional observations from a re-analysis of the deposited data

How the results depend on the processing

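Of the 44 genes named by rule, in 16 alternative settings each, 613 values kept direction and side of the threshold, 65 kept direction and lost the call, 14 kept direction and gained one, and 12 changed sign, none of a called gene. With 1 library left out, TGFB1 ranged from -0.0657 (without control replicate 1) to 0.504, SMAD3 from -0.126 to 0.0328 (without knockdown replicate 1) and FSTL3 from -0.182 to 0.0466 (without control replicate 2). TPM1 ranged from -0.0632 to 0.0307 and was above 0 without control replicate 2 (0.00674) or knockdown replicate 1. TGFBRAP1 was 0.00023 with upper-quartile scaling, 0.0131 when the test was limited to genes in the authors' deposited table, 0.0154 with limma-voom, -0.137 without knockdown replicate 2 and above 0 without control replicate 2 (0.0418) or 3 (0.0404) or knockdown replicate 1 (0.0511) or 3 (0.0415). The knockdown over control value of the TGFB2 share, 1.02, ranged from 0.975 to 1.12 and was 0.984 and 0.975 without control replicate 2 and 3. Over all genes 1104 of 13445 tested were called, and 427 to 564 of 13838 to 13968 without any 1 library. With the test limited to the genes in the authors' deposited table, 2060 of 11638 were called. There 6 of the 10 genes (SMAD7, TGFBR1 and TGFBR2 added) and 33 list genes were called, against 3 and 19. With limma-voom 1219 of 13445 genes were called, and 5 of the 10, TGFBR1 and TGFBR2 added. Without 1 library 2 of the 10 were called, whichever it was, and 10 to 16 list genes. With the replicate number as a block, 416 genes, 2 of the 10 (LTBP1 lost, adjusted p = 0.0821) and 11 list genes were called; same-numbered libraries deviated from their group means with correlations of -0.17 to -0.02, 0 of 3 control libraries correlated best with its own number, and the numbers are not taken to pair the samples. The cause of these differences was not tested. TGFB1, TGFB3 and SMAD7 had 4 to 78 counts per library, so counting error is a larger share of their values than for the other 7 genes.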
